A study of Homo sapiens with 10 samples.

Results

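Proteoglycans are proteins that carry long sulfated sugar chains, the glycosaminoglycans, and the genes described here encode their core proteins and the enzymes that build and sulfate the chains. The genes were chosen by symbol from the deposited table of read counts: the numbered families CHST, HS2ST, HS3ST, HS6ST, NDST, XYLT, EXT and EXTL, CHSY, CHPF, CSGALNACT, GPC, SDC, HAS and SULF, and VCAN, BGN, DCN, LUM, GLCE and DSE. Of 22626 rows in the table, 64 were members, and 49 of them passed the filter on low counts. The choice of this family was made with earlier results of the same comparison in view, so its fold changes are given as a description of each gene and support nothing about the family as a whole. The RNA came from ARPE-19, an established human retinal pigment epithelial (RPE) cell line, kept for 48 h in control medium with 5.5 mM glucose and 32 mM mannitol (MG, n = 5) or in high glucose medium with 37.5 mM glucose (HG, n = 5). Mannitol is a sugar alcohol that makes up the osmotic strength that the additional glucose brings. The libraries are named by their deposited columns, MG_1 to MG_5 and HG_1 to HG_5, and nothing in the labels says that the libraries of a group came from separate cultures.

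In a cell, a glycosaminoglycan chain starts on a serine of the core protein with xylose, is extended by polymerases that add 2 kinds of sugar in turn, and is then modified by epimerases and sulfotransferases. Heparan sulfate is carried mainly by syndecans, which span the plasma membrane, by glypicans, which are anchored to it by a lipid, and by secreted cores such as perlecan. Chondroitin sulfate is carried by matrix cores such as versican, while hyaluronan is made without a core and without sulfate. The RPE rests on Bruch's membrane, whose basement membrane layer holds heparan sulfate proteoglycans, and a matrix rich in hyaluronan and chondroitin sulfate lies on its apical side.

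Total counts were between 32448991 and 45864176 per library. MG_2 and HG_1 stood apart from the other libraries: their log2 level rose with the GC content of a transcript, by 0.17 and 0.188 per 10 percentage points, while the slopes of the other 8 libraries lay between -0.0916 and -0.00519. For this reason the number of members called and the values of some of the genes are also given without them. Of the RPE markers, RLBP1, MITF and OTX2 were present at mean control levels of 6.47, 11.4 and 33.9 FPKM (deposited values scaled for transcript length and library depth), whereas RPE65 reached at most 6 counts in a library and TTR had none. PMEL, SERPINF1, TYRP1, TYR and DCT were lower, at 1.65, 0.520, 0.491, 0.127 and 0.0192 FPKM in the control group. BEST1 varied from 0.577 to 551 CPM, the counts scaled to a common library size, among the control libraries alone. Of the 11 RPE markers, 7 were tested, of which PMEL fell and 6 were not called, and their summed level was 166 to 718 CPM in the control libraries and 151 to 163 CPM in HG, with BEST1 alone at 264 CPM in MG_1 and 551 CPM in MG_4 and at most 7.79 CPM in the other 8 libraries. The keratins KRT8 and KRT18 were abundant and fell in HG with log2 fold changes of -0.62 and -0.68, the sum of the 4 epithelial markers being 2661 to 3288 CPM in MG and 1638 to 2315 CPM in HG, while CDH1 and EPCAM were near 0. Of 6 fibroblast markers, COL1A1 (-1.33) and PDGFRB (-0.78) fell and the other 4 were at or near 0 in every library, with sums of 207 to 255 CPM in MG and 106 to 131 CPM in HG. The immune markers PTPRC and CD14 were near 0, while CD68, which also marks lysosomes, rose with a log2 fold change of 0.70 and made up nearly all of the sum of the 3, at 54.5 to 81.3 CPM in MG and 102 to 144 CPM in HG. Sums of the 3 endothelial and of the 3 photoreceptor markers were at most 1.00 CPM in any library. Whether the marker differences have a part in the results that follow was not tested.

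In HG, transcripts of 3 of 4 syndecans and 4 of 5 tested glypicans fell, and so did a smaller part of the enzymes that extend or sulfate heparan and chondroitin chains, most of which were not called. The largest falls among the called members were those of VCAN, the versican core, CHST2, a sulfotransferase that acts on N-acetylglucosamine, and NDST1, which starts the sulfation of heparan sulfate. Only GPC3, a glypican, was higher. The calls of SDC3, GPC2 and GPC3 were each lost in 8 of the 10 fits with 1 library left out. The call of VCAN, which is low and whose groups overlapped, was lost in 4. Of the 49 members tested, 18 fell, 1 rose and 30 were not called at an adjusted p under 0.05 in edgeR's quasi-likelihood test, fitted and adjusted over all rows. The members called were thus 38.8% of those tested, beside 15.4% of all 14936 rows tested, 7.8% lower and 7.62% higher. Since the choice was made with this contrast known, nothing is read from that difference. The log2 fold changes were negative for 41 members and positive for 8, with a median of -0.22, beside 0.0013 over all rows. In 14 members the lowest control library lay above the highest HG library, and all 14 were among the 18 that fell. Over all rows, 13.6% had groups that did not overlap, 6.91% with HG lower. Most differences were small, and 2 of the called members, VCAN and CHST2, differed by more than 1.5-fold. HAS1, CHST7 and EXTL1, which are low and were not called, had log2 fold changes of -0.69, -0.66 and 0.86. All 19 called members were above the filter's level of 0.249 CPM in all 10 libraries, so none of them entered the test through 1 group only.

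**Figure D1:**
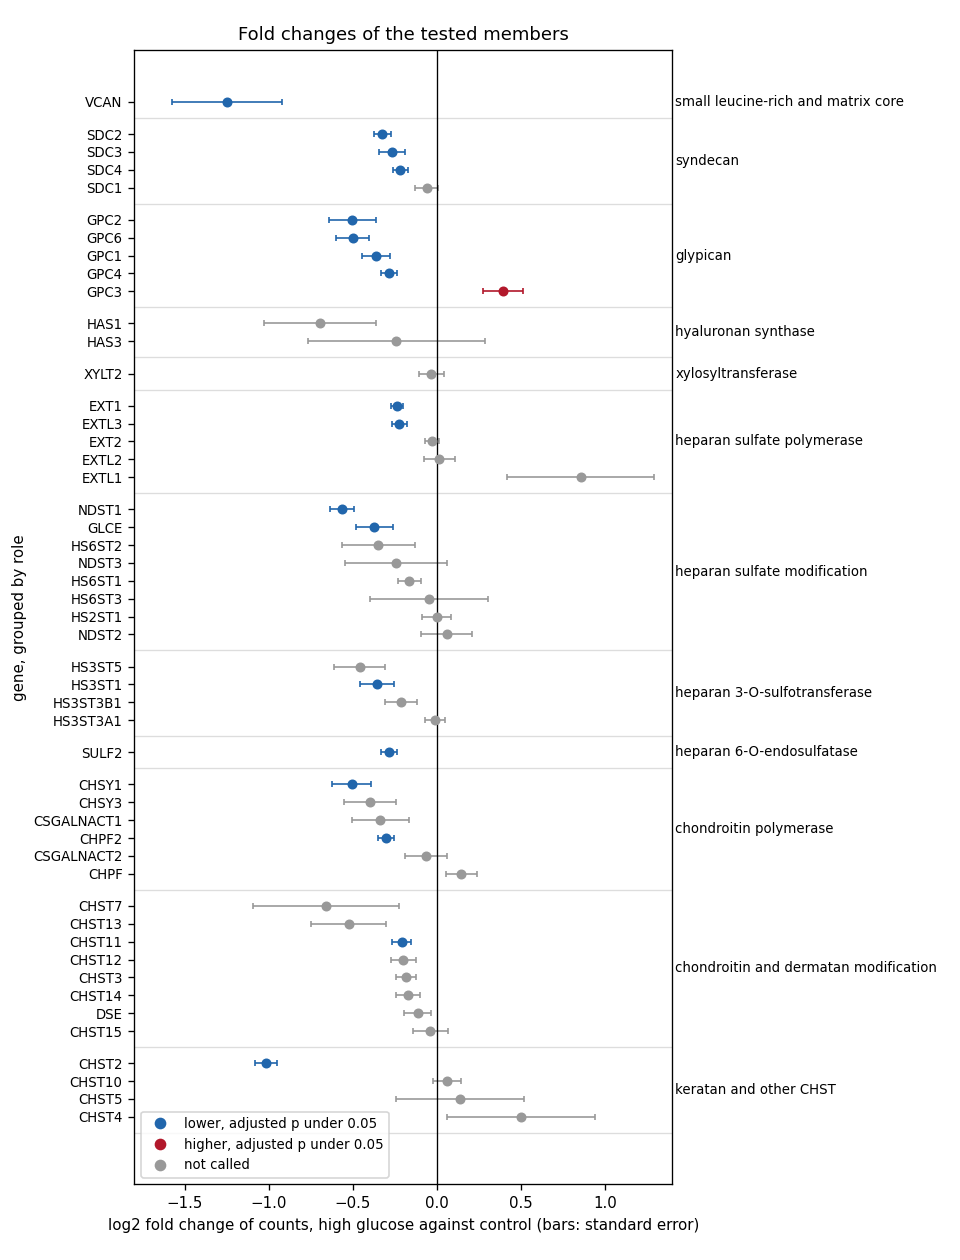
Log2 fold change of counts (x axis, HG against MG, bars are standard errors) for the 49 tested members (y axis), grouped by role. Blue points fell, the red point rose and grey points were not called at an adjusted p under 0.05, and 41 of the 49 points lie left of 0.

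The sequence before the gene start is shown for 4 called members of 3 roles whose groups did not overlap and whose window touched no annotated exon. Each window holds the 250 bases before the RefSeq start of the gene on GRCh38.p14, read 5′ to 3′ on the strand of the gene. For CHSY1, GPC1 and CHPF2 the RefSeq start lies upstream of the start of the gene in GENCODE, so their windows do not end at the latter. The distance is largest for CHSY1, whose window ends at 101252049 while the gene starts at 101251932. Capitals mark matches on either strand to GGGCGG, the core of the GC box bound by Sp factors, or to CACGTG, an E-box. TATAAA and TGATGNAA, the latter the core of the amino acid response element, were also searched, and overlapping matches of a motif were counted separately.
CHSY1, chr15:101252049-101252298, minus strand: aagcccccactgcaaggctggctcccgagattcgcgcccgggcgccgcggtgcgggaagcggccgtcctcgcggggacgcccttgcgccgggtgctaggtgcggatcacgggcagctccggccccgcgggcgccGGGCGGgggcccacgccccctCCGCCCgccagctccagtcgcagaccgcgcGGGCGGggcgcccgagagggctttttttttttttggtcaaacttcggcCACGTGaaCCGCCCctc
GPC1, chr2:240435413-240435662, plus strand: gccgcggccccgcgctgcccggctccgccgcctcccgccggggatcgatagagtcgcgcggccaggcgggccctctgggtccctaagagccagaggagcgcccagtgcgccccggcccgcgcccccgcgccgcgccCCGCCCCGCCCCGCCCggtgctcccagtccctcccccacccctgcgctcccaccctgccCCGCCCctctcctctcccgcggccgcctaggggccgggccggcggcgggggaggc
CHPF2, chr7:151232233-151232482, plus strand: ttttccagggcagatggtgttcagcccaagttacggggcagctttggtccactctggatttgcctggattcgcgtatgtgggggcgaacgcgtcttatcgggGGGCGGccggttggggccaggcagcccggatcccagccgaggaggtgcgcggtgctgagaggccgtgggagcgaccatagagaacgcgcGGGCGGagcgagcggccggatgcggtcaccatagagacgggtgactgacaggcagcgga
SDC4, chr20:45348425-45348674, minus strand: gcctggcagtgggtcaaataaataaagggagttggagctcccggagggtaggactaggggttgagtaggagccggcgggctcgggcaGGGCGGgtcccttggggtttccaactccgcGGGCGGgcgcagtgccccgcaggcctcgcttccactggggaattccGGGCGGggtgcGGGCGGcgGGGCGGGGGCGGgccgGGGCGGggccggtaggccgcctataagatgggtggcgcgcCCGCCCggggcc
The CHSY1 window held 4 matches to GGGCGG and 1 to CACGTG. GPC1 had 4 matches to GGGCGG, 3 of them next to each other, CHPF2 had 2 and SDC4 had 8. The windows were 74.8%, 84%, 66% and 73.6% G or C, in the order shown, and none held TATAAA or TGATGNAA. RefSeq windows were found for 53 of the 64 members, and 46 of these (86.8%) held GGGCGG in any window, beside 46.2% of 27305 genes. These are all genes with a RefSeq window, not matched to the members in gene type or expression, so nothing is read from the difference. CACGTG occurred in 5 of the 53 (9.43%, beside 7.73% of all genes), TATAAA in 4 (7.55%, beside 13%) and TGATGNAA in 0 (beside 3.89%). These are matches of letters and not sites of binding. Members called and members not called both held GGGCGG, among the latter CHPF, XYLT2 and HS3ST3A1.

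Syndecans are the transmembrane heparan sulfate proteoglycans, and all 4 were expressed. In the control group their mean levels per transcript length were 68.2 FPKM for SDC4, 32.1 for SDC1, 22.6 for SDC2 and 10.3 for SDC3, and the 5 control values of each gene did not overlap those of its neighbours in this order. The order was the same in HG. SDC2, SDC3 and SDC4 fell and SDC1 was not called, with a median log2 fold change of -0.24 over the 4 genes.

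SDC4, which works with integrins at focal adhesions, measured 198, 204, 195, 181 and 187 CPM in MG_1 to MG_5 and 173, 167, 167, 156 and 167 CPM in HG_1 to HG_5. The highest HG library, HG_1, lay below the lowest control library, MG_4, and the log2 fold change was -0.22 (SE 0.045, adjusted p = 0.00849). For SDC2, the form typical of mesenchymal cells, the values were 82.1, 76.3, 76.5, 84.1 and 84.0 CPM in MG_1 to MG_5 and 60.0, 65.3, 67.4, 62.8 and 66.3 CPM in HG_1 to HG_5. The groups were 8.90 CPM apart at their nearest, with a log2 fold change of -0.32 (SE 0.050, adjusted p = 0.00168). SDC3 had a similar fold change of -0.27 (SE 0.079, adjusted p = 0.0434), but its groups overlapped, and the call was lost in 8 of the 10 fits that left out 1 library, with adjusted p up to 0.103, without a filter (0.0529) and on FPKM values without a filter on low levels (up to 0.0604). SDC1, the main syndecan of simple epithelia, lay between 101 and 122 CPM in the control group and between 94.8 and 113 CPM in HG, with a log2 fold change of -0.06 (SE 0.067, adjusted p = 0.629). The summed FPKM of the 4 syndecans went from 133 ± 2.77 (SD, n = 5) to 117 ± 2.27 (SD, n = 5), and the share of SDC4 in that sum was 51.2% in the control group and 50.4% in HG.

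Glypicans are heparan sulfate proteoglycans held to the membrane by a glycosylphosphatidylinositol anchor, and they bind growth factors such as Wnt, Hedgehog and fibroblast growth factors. GPC1, GPC2, GPC4 and GPC6 fell, GPC3 rose, and GPC5 was below the filter. The median log2 fold change of the 5 tested genes was -0.36. Per transcript length GPC1 was by far the most abundant at 80.6 FPKM in the control group, ahead of GPC4 with 29.7, GPC6 with 7.50, GPC3 with 2.51 and GPC2 with 1.44, and neighbours in this order did not overlap between libraries. GPC1 thus made up 66.1% of the summed glypican FPKM in the control group and 64.6% in HG, while the sum went from 122 ± 2.98 to 97.6 ± 5.38 (SD, n = 5 each).

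GPC1 (chr2:240435671-240468078) measured 314, 367, 309, 311 and 321 CPM in MG_1 to MG_5 and 308, 244, 247, 227 and 235 CPM in HG_1 to HG_5. MG_2 and HG_1 were the highest library of their groups, and the highest HG value lay just below the lowest control value. The log2 fold change was -0.36 (SE 0.084, adjusted p = 0.0146), and without MG_2 and HG_1 it was -0.40 (adjusted p = 0.000108). GPC4 (chrX:133300103-133415490), the second glypican in abundance, measured 166, 148, 163, 159.6 and 161 CPM in MG_1 to MG_5 and 120.4, 139, 135, 129 and 132 CPM in HG_1 to HG_5. Here MG_2 and HG_1 were the lowest library of their groups, and the log2 fold change was -0.28 (SE 0.049, adjusted p = 0.00308). GPC6 (chr13:93226842-94407401) measured 71.6, 48.0, 57.5, 56.9 and 55.0 CPM in MG_1 to MG_5 and 36.5, 43.9, 42.0, 42.6 and 39.1 CPM in HG_1 to HG_5. MG_1 was the highest and MG_2 the lowest control library, HG_2 came nearest to them, and the log2 fold change was -0.50 (SE 0.098, adjusted p = 0.00596). GPC2, described mainly in developing neurons, was low, with 3.37, 3.39, 3.32, 3.30 and 3.71 CPM in MG_1 to MG_5 and 2.83, 2.08, 2.27, 2.01 and 2.86 CPM in HG_1 to HG_5. Control libraries were close to each other except MG_5, while HG_1 and HG_5 lay between them and the other 3 HG libraries. Its log2 fold change of -0.50 (SE 0.14, adjusted p = 0.0339) lost its call in 8 of the 10 fits with 1 library left out, where adjusted p reached 0.0834.

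GPC3 (chrX:133535745-133985895) is the neighbour of GPC4, 120.3 kb away on the same strand, and is known as an oncofetal protein of the liver and a regulator of body growth. Its CPM lay between 4.93 and 6.66 in the control group and between 6.11 and 8.83 in HG, and HG_4 lay below MG_2 and MG_4. The log2 rise of 0.39 (SE 0.12, adjusted p = 0.0499) was just inside the threshold and was lost in 8 of the 10 fits with 1 library left out (adjusted p up to 0.112) as well as with RLE size factors and without a filter, where adjusted p reached 0.0679. Its share of the summed glypican FPKM was between 1.79% and 2.27% in the control libraries and between 3.31% and 3.96% in the HG libraries. GPC5, next to GPC6 on chromosome 13 at a distance of 353.2 kb, had at most 15 counts in a library.

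**Figure D2:**
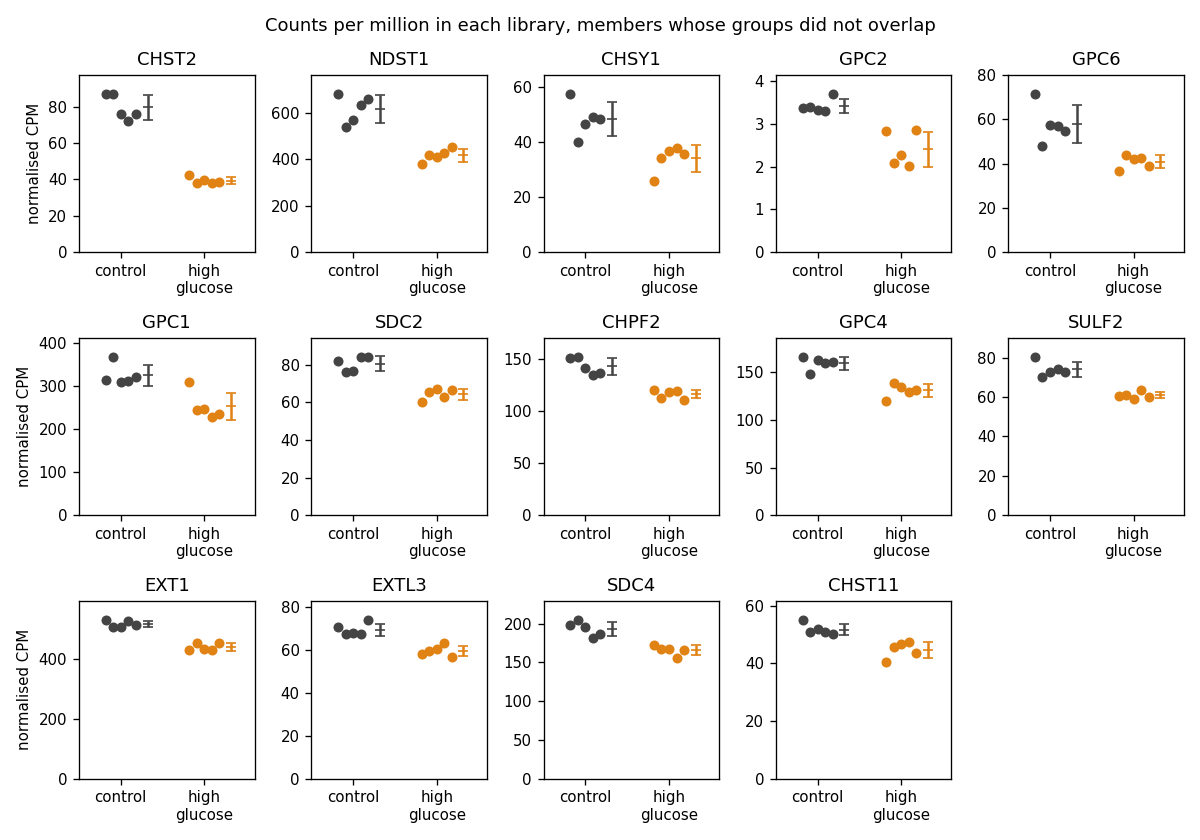
Normalised CPM (y axis, from 0) in each library for the 14 members whose groups did not overlap, ordered by fold change. Points are the 5 control (grey) and 5 HG (orange) libraries in column order, with the mean and SD beside them, and the gap between the groups is widest for NDST1 (86.5 CPM), while relative to its level CHST2 stands furthest apart.

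Among the matrix cores of the list, only versican was detected above the filter. VCAN (chr5:83471465-83582303) encodes a large chondroitin sulfate proteoglycan that binds hyaluronan, and its level was low, with 0.159 FPKM in the control group and 0.0674 in HG. Its values were 3.00, 1.41, 1.83, 2.57 and 1.91 CPM in MG_1 to MG_5 and 0.390, 0.848, 0.780, 1.06 and 1.43 CPM in HG_1 to HG_5. MG_2, the lowest control library, was just below HG_5, the highest HG library, and the other libraries did not overlap. The log2 fold change of -1.25 (SE 0.33, adjusted p = 0.0265) was the largest among the called members, and it was called again without MG_2 and HG_1 (-1.18, adjusted p = 0.0106). The call was lost when HG_2, HG_3, MG_1 or MG_4 was left out, with adjusted p up to 0.0711. The small leucine-rich cores biglycan (BGN) and lumican (LUM) had no counts in any library and decorin (DCN) had at most 3.

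Hyaluronan synthases sit in the plasma membrane and extrude hyaluronan. HAS2 had no counts, and neither HAS1 nor HAS3 was called. HAS3, the more abundant, measured 2.43, 3.61, 1.95, 3.27 and 4.67 CPM in MG_1 to MG_5 and 3.33, 2.59, 0.245, 3.50 and 3.86 CPM in HG_1 to HG_5. HG_3 was far below every other library, and the groups overlapped widely. The log2 fold change was -0.24 (SE 0.53, adjusted p = 0.823) and turned to 0.058 without HG_3. HAS1 lay between 0.212 and 0.516 CPM in the control group and between 0.122 and 0.312 in HG.

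Chain synthesis on a core protein begins with a xylosyltransferase. XYLT1 had no counts in any library, and XYLT2 was present at 9.67 FPKM in the control group and 9.51 in HG. Its values were 35.6, 38.6, 35.2, 32.0 and 35.3 CPM in MG_1 to MG_5 and 40.1, 34.2, 34.5, 31.7 and 32.1 CPM in HG_1 to HG_5. HG_1 was the highest and HG_4 the lowest library, so that the groups overlapped throughout, with a log2 fold change of -0.032 (SE 0.075, adjusted p = 0.836).

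Heparan sulfate chains are polymerised by EXT1 and EXT2, which act as a complex in the Golgi, while EXTL enzymes start or tune the chains. EXT1 and EXTL3 fell, EXT2 and EXTL2 were not called, and EXTL1 was near the filter with at most 20 counts. EXT1 was the most abundant of them at 58.3 FPKM in the control group and measured 532, 507, 509.9, 531 and 517 CPM in MG_1 to MG_5 and 430.4, 456, 434, 432 and 454 CPM in HG_1 to HG_5. The spread within each group was small, the groups were 51.2 CPM apart at their nearest, and the log2 fold change was -0.23 (SE 0.036, adjusted p = 0.0015). EXT2, its partner, lay between 182 and 199 CPM in the control group and between 175 and 189 in HG, with a log2 fold change of -0.029 (SE 0.039, adjusted p = 0.704). Whether the changes of EXT1 and EXT2 differ was not tested. EXTL3, which adds the N-acetylglucosamine that commits a chain to heparan sulfate, measured 71.0, 67.4, 68.3, 67.5 and 74.0 CPM in MG_1 to MG_5 and 58.1, 59.7, 60.4, 63.3 and 56.8 CPM in HG_1 to HG_5. HG_4 was the highest HG library and stayed below the 5 control libraries, with a log2 fold change of -0.22 (SE 0.047, adjusted p = 0.00925). On the deposited FPKM values the call of EXTL3 was lost, with adjusted p up to 0.12. EXTL2 and EXTL3 had overlapping FPKM values in the control group.

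The growing heparan sulfate chain is first N-deacetylated and N-sulfated by NDST enzymes, then epimerised by GLCE and sulfated by HS2ST1 and the HS6ST enzymes. Of 8 such genes tested, NDST1 and GLCE fell and 6 were not called, with a median log2 fold change of -0.20. NDST1 (chr5:150485818-150558211) dominated the group at 75.5 FPKM in the control group, ahead of HS2ST1 with 9.68, and measured 682, 541, 570.3, 636 and 661 CPM in MG_1 to MG_5 and 378, 419, 409, 428 and 455 CPM in HG_1 to HG_5. MG_2 was the lowest control library, HG_5 the highest HG library, and a gap of 86.5 CPM lay between them. The log2 fold change of -0.57 (SE 0.073, adjusted p = 0.000626) was, among the called members, the largest fall after those of VCAN and CHST2. It stayed called in every fit with 1 library left out, between -0.61 and -0.53. NDST1 made up between 74.3% and 78.0% of the summed FPKM of these 9 genes in the control libraries and between 68.2% and 70.6% in the HG libraries, ranges that did not overlap.

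GLCE, the C5-epimerase that converts glucuronic into iduronic acid, had a log2 fold change of -0.37 (SE 0.11, adjusted p = 0.0425). Its groups overlapped, MG_2 being the lowest control library, and the call was lost in 9 of the 10 fits with 1 library left out (adjusted p up to 0.0994), with library size alone (adjusted p = 0.0686), without a filter (0.0573) and on FPKM values (up to 0.0911). Without MG_2 and HG_1 the log2 fold change of GLCE was -0.38 (adjusted p = 0.00651), and it was called again after removal of the GC and length trends (adjusted p = 0.00096). The members not called were HS2ST1, HS6ST1, HS6ST2, HS6ST3, NDST2 and NDST3, with log2 fold changes between -0.35 and 0.058. The 2 lowest libraries of HS2ST1 were HG_1 and MG_2. Counts of NDST2 are uncertain, since 82.9% of its exon bases are also part of another annotated gene that reads through it. NDST4 had at most 2 counts in a library.

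The 3-O-sulfotransferases add a rare sulfate group that creates binding sites for antithrombin, in the case of HS3ST1, or for other ligands. Only HS3ST1 was called, with a log2 fold change of -0.36 (SE 0.10, adjusted p = 0.0369). Its groups overlapped, and the call was lost in 8 of the 10 fits with 1 library left out, without MG_2 and HG_1 (adjusted p = 0.0581) and without a filter (0.0558). The most abundant form, HS3ST3A1, measured 37.4, 38.9, 36.8, 41.2 and 36.9 CPM in MG_1 to MG_5 and 37.0, 39.2, 36.4, 41.7 and 35.3 CPM in HG_1 to HG_5. The groups covered the same range, with a log2 fold change of -0.012 (SE 0.059, adjusted p = 0.928) whose sign depended on the setting, among them library size alone. HS3ST3A1 and HS3ST3B1 lie 699.2 kb apart on chromosome 17 and share 18% and 8.31% of their 100-base windows, so their reads may in part be exchanged. HS3ST5 was just outside the threshold with a log2 fold change of -0.46 (SE 0.15, adjusted p = 0.0661) and was called by DESeq2, with at least 10 counts in every library, after removal of the GC and length trends and without MG_3. HS3ST2, HS3ST4 and HS3ST6 had no counts in any library.

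Finished heparan sulfate can be edited outside the cell by SULF enzymes, which remove 6-O-sulfate groups. SULF1 had at most 8 counts, and SULF2 made up at least 99.8% of the FPKM of both genes in each library. SULF2 measured 80.3, 70.4, 72.5, 74.5 and 72.8 CPM in MG_1 to MG_5 and 60.6, 61.2, 59.1, 63.4 and 60.2 CPM in HG_1 to HG_5. The HG libraries were close together and lay below each control library, and the log2 fold change was -0.28 (SE 0.046, adjusted p = 0.0023).

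Chondroitin sulfate is polymerised by complexes of CHSY and CHPF proteins, and CSGALNACT enzymes add the N-acetylgalactosamine that starts the chain. CHSY1 and CHPF2 fell and the other 4 genes were not called, with a median log2 fold change of -0.32. CHSY1 (chr15:101175723-101251932) is a synthase with both transferase activities, and of the windows shown its own held the CACGTG match. It measured 57.4, 40.1, 46.6, 49.0 and 48.3 CPM in MG_1 to MG_5 and 25.7, 34.1, 36.8, 37.8 and 35.5 CPM in HG_1 to HG_5. HG_1 was the lowest library and MG_1 the highest, and between MG_2 and HG_4 a gap of 2.23 CPM remained. Its log2 fold change was -0.51 (SE 0.12, adjusted p = 0.0139), and without MG_2 and HG_1 it was -0.48 (adjusted p = 0.00114). The call was lost on FPKM values without a filter on low levels (adjusted p up to 0.0702). CHPF2 measured 151, 152, 141, 135 and 137 CPM in MG_1 to MG_5 and 120.4, 113, 118, 119 and 111 CPM in HG_1 to HG_5. Each group was tight, HG_1 and MG_4 were the nearest libraries, and the log2 fold change was -0.30 (SE 0.048, adjusted p = 0.00195).

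CHPF, the chondroitin polymerising factor, had the highest mean level of all members per transcript length, with 86.5 FPKM in the control group and 96.5 in HG. Its control FPKM values overlapped those of GPC1 and NDST1. Its values were 263, 321, 279, 272 and 264 CPM in MG_1 to MG_5 and 381, 292, 311, 297 and 268 CPM in HG_1 to HG_5. MG_2 and HG_1 were the highest library of their groups, and the groups overlapped. Its log2 fold change was 0.15 (SE 0.092, adjusted p = 0.343), and it lay between 0.065 and 0.20 with 1 library left out. Without MG_2 and HG_1 it was 0.12 (adjusted p = 0.084), not called. It became 0.19 (adjusted p = 0.00147) once the trend of each library on GC content and transcript length was removed. CHPF provided between 58.0% and 65.6% of the summed FPKM of the 6 genes in the control libraries and between 66.2% and 74.1% in the HG libraries, while the sum was 140 FPKM in both groups. Next in level were CHPF2 with 36.5 FPKM, CHSY1 with 9.65 and CSGALNACT2 with 6.12, whereas CHSY3 and CSGALNACT1 were below 1 FPKM and overlapped each other.

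**Figure D3:**
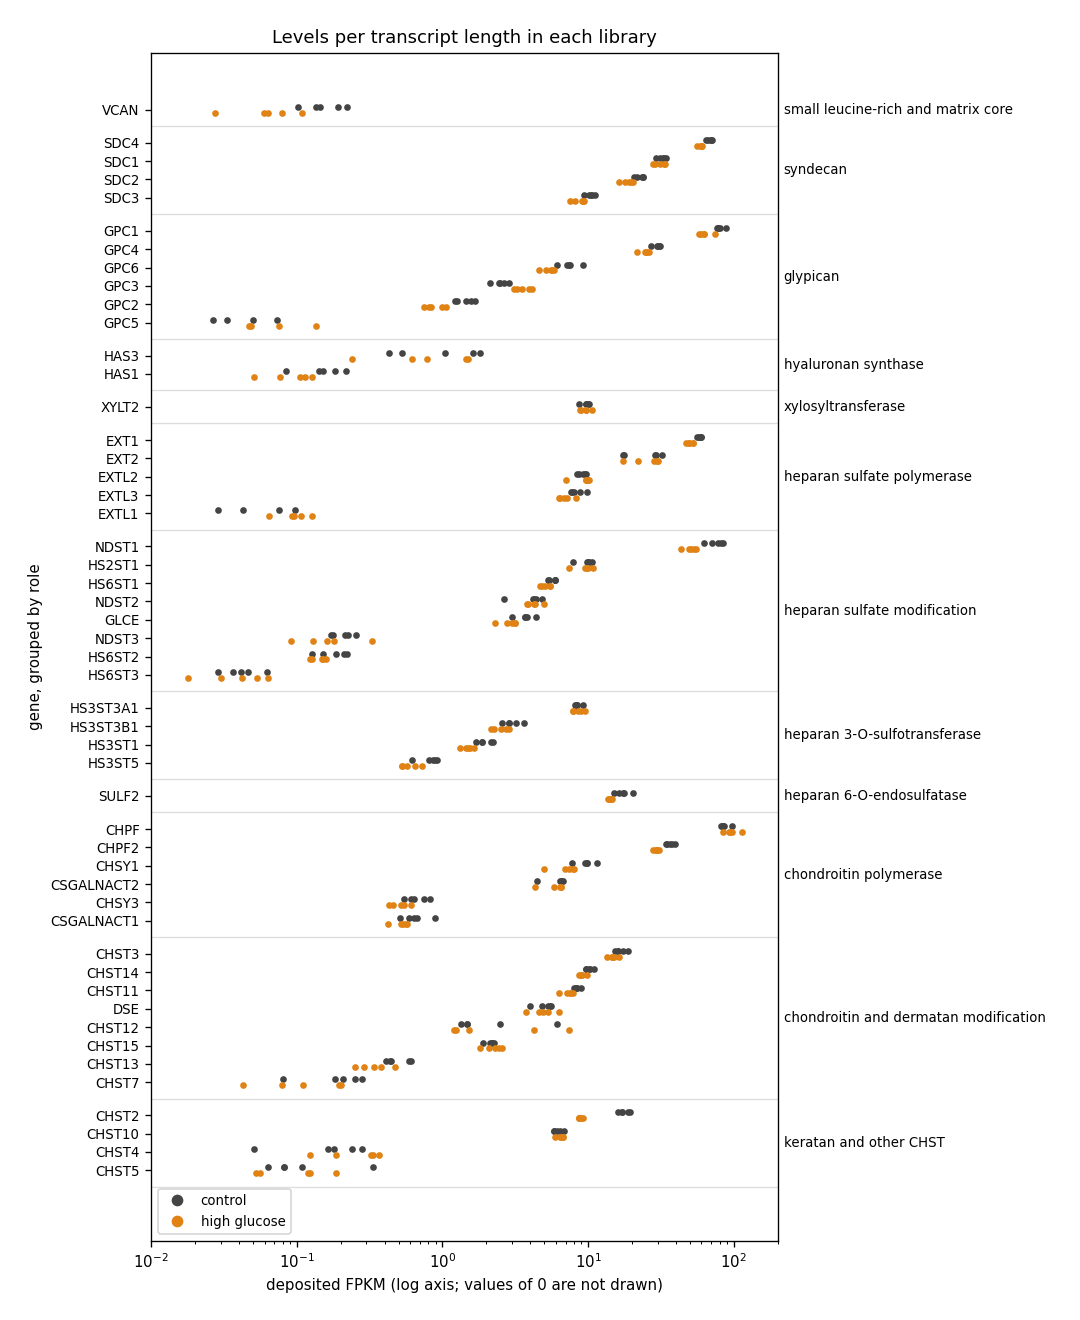
Deposited FPKM (x axis, log scale) of 50 members with a mean control level above 0.02 FPKM (y axis, grouped by role), with 1 point per library, grey for control and orange for HG. CHPF, GPC1, NDST1, SDC4 and EXT1 lead their roles, and the points of CHST12, HAS3, EXT2 and CHST5 are spread widely within a group.

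Chondroitin chains are sulfated at position 4 of N-acetylgalactosamine by CHST11, CHST12 and CHST13, at position 6 by CHST3 and CHST7, and at both by the additional step of CHST15, while DSE and CHST14 make and sulfate dermatan sulfate. All 8 genes had negative log2 fold changes, with a median of -0.19, but only CHST11 was called. CHST11 measured 55.0, 50.9, 51.9, 50.8 and 50.3 CPM in MG_1 to MG_5 and 40.5, 45.7, 46.6, 47.5 and 43.5 CPM in HG_1 to HG_5. The lowest control library, MG_5, lay just above the highest HG library, HG_4, and the log2 fold change was -0.21 (SE 0.054, adjusted p = 0.0243). The call was lost when HG_5, MG_1 or MG_3 was left out, where adjusted p reached 0.062, on the FPKM values, where it reached 0.0842, and with library size alone (adjusted p = 0.0572). CHST3, the most abundant of the group at 16.7 FPKM, measured 141, 117, 119, 120.1 and 129.6 CPM in MG_1 to MG_5 and 105, 110.0, 109, 121 and 109 CPM in HG_1 to HG_5. HG_4 reached into the control range, and with a log2 fold change of -0.18 (SE 0.061, adjusted p = 0.0709) it was outside the threshold. CHST3 was called by DESeq2 (adjusted p = 0.0321), without HG_4 (adjusted p = 0.0488) and without MG_2 and HG_1 (adjusted p = 0.0497), and was -0.099 (adjusted p = 0.289) after removal of the GC and length trends. The FPKM values of CHST12 are not usable for its level, since its ratio of counts to FPKM varied 6.44-fold between libraries after scaling.

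The last role holds sulfotransferases of keratan sulfate and of N- and O-linked sugars. CHST2 (chr3:143119331-143124014) encodes an N-acetylglucosamine 6-O-sulfotransferase that takes part in keratan sulfate and in sulfated Lewis-type sugars. It measured 87.0, 86.8, 76.1, 71.8 and 76.0 CPM in MG_1 to MG_5 and 42.4, 37.9, 39.5, 38.1 and 38.4 CPM in HG_1 to HG_5. The highest HG library, HG_1, lay 29.4 CPM below the lowest control library, MG_4, and HG_2 to HG_5 were close to each other. This gave a log2 fold change of -1.02 (SE 0.066, adjusted p = 1.95e-05), a 2.03-fold fall, and values between -1.05 and -0.98 when 1 library was left out. Its share of the summed FPKM of this role went from between 71.8% and 76.2% in the control libraries to between 55.4% and 57.5% in the HG libraries. CHST10, which makes the HNK-1 sugar, was not called (log2 fold change 0.059, adjusted p = 0.713), and CHST4 and CHST5 were below 1 CPM. Of the exon bases of CHST5, 59.1% are also part of another annotated gene, so its counts are uncertain. CHST1, CHST8 and CHST9 had no counts in any library and CHST6 had at most 7.

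Altogether 10 members had no counts in any library, BGN, LUM, HAS2, XYLT1, HS3ST2, HS3ST4, HS3ST6, CHST1, CHST8 and CHST9. A count of 0 allows up to 3 counts, or 0.0668 to 0.0912 CPM depending on the library, and covers counting error only. DCN, GPC5, NDST4, SULF1 and CHST6 had some counts and were below the filter. The RNA was bulk RNA, in which fewer cells of a type and less RNA per cell cannot be told apart, and all values are shares of the library.

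The GC content of the members bears on MG_2 and HG_1. Across the 42 tested members with a mean control level of at least 1 CPM, the deviation of MG_2 from the other control libraries had a Pearson correlation of 0.703 with GC content, and that of HG_1 from the other HG libraries had 0.604. These are descriptions across genes of 1 library each. The median GC content was 51.4% for the tested members and 48.5% for all tested rows with an annotated transcript. Members rich in GC such as GPC1 (66.7%) and CHPF (67.6%) were highest in these libraries and members such as CSGALNACT2 (38.2%), GLCE (39.0%) and HS2ST1 (37.4%) were low. Members such as NDST1 (56.6%), CHST3 (57.1%) and EXTL3 (55.7%) went the other way. In both libraries they lay below the mean of the other libraries of the group. With 1 such library in each group the contrast holds both, and without MG_2 and HG_1 the fit called 21 members, 18 of them among the 19.

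**Figure D4:**
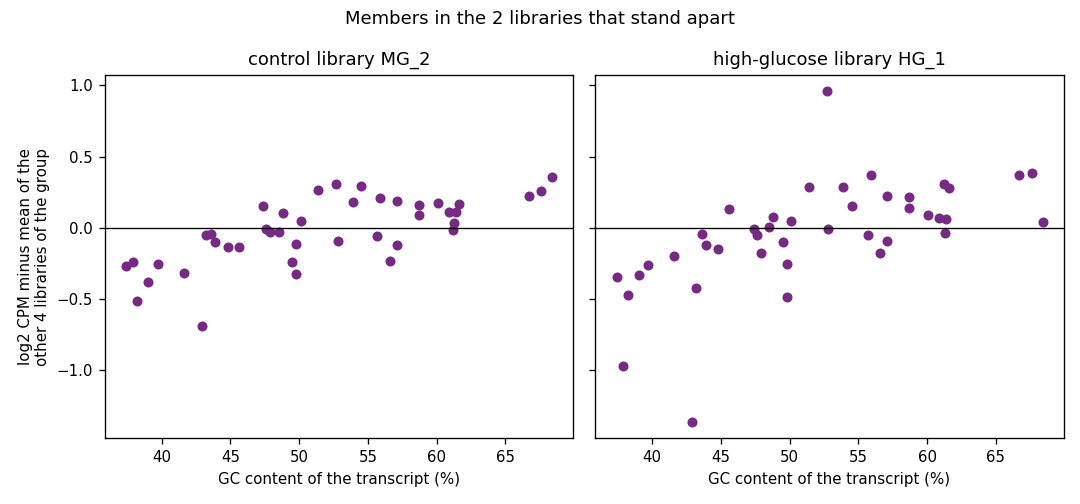
Log2 CPM of a member minus the mean of the other 4 libraries of its group (y axis) against the GC content of its transcript (x axis, %), for MG_2 (left) and HG_1 (right). Each point is 1 of 42 members, and points tend to rise from left to right in both panels. In HG_1, HAS3 lies far above the others and VCAN and NDST3 lie far below them.

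Other genes of the pathway, taken from lists written by hand, were read from the same fit. Of 74 genes listed, 58 were tested, and 6 fell and 5 rose, beside 15.4% called over all rows, with a median log2 fold change of -0.00033. The 5 enzymes of the linker region, which joins chain and core, had log2 fold changes between -0.21 and 0.18 and adjusted p of at least 0.199. Of 11 genes for the supply of sugar and sulfate donors, PAPSS1 fell, an enzyme that makes the sulfate donor PAPS. It measured 132, 109.6, 116, 115 and 119 CPM in MG_1 to MG_5 and 83.6, 94.7, 94.7, 92.9 and 92.3 CPM in HG_1 to HG_5. The groups did not overlap, with a log2 fold change of -0.37 (SE 0.058, adjusted p = 0.00174), while PAPSS2 was not called (log2 fold change 0.0094, adjusted p = 0.951). B3GAT1, which makes the sugar that CHST10 sulfates, fell by 0.32 on the log2 scale (adjusted p = 0.016).

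Among 19 tested genes of chain degradation, 4 rose and 2 fell, and the median log2 fold change was 0.094. The genes that rose encode lysosomal hydrolases that take glycosaminoglycans and other substrates apart, HEXA, GLB1, SGSH and ARSB, and CEMIP and CEMIP2, which fell, act on hyaluronan at the cell surface. SGSH (log2 fold change 0.24, adjusted p = 0.0461) and ARSB (0.18, adjusted p = 0.0498) were just inside the threshold and lost their calls in 8 and 9 of the 10 fits with 1 library left out, and that of SGSH was also lost without MG_2 and HG_1 (adjusted p = 0.0531) and without a filter (0.0527). The call of ARSB was also lost with RLE size factors, with library size alone and without a filter (adjusted p up to 0.0675), and on FPKM values (up to 0.182). HEXA measured 201, 284, 252, 250.1 and 238 CPM in MG_1 to MG_5 and 375, 328, 326, 315 and 317 CPM in HG_1 to HG_5. MG_1 was the lowest control library, HG_1 the highest HG library, and the groups did not overlap, with a log2 fold change of 0.44 (SE 0.085, adjusted p = 0.00572). GLB1, a beta-galactosidase, measured 138, 148, 145, 133 and 136 CPM in MG_1 to MG_5 and 195, 181, 181, 162 and 169 CPM in HG_1 to HG_5. The lowest HG library, HG_4, lay above the highest control library, MG_2, with a log2 fold change of 0.34 (SE 0.056, adjusted p = 0.00231). CEMIP2 measured 69.0, 43.6, 56.0, 54.9 and 60.8 CPM in MG_1 to MG_5 and 28.4, 41.4, 39.4, 43.5 and 42.5 CPM in HG_1 to HG_5. HG_4 and MG_2 differed by less than 0.1 CPM, and the log2 fold change was -0.54 (SE 0.14, adjusted p = 0.0218), a call lost when HG_3, MG_1 or MG_5 was left out. CEMIP was low, at up to 2.46 CPM in the control libraries and 0.291 to 0.973 CPM in HG, and its groups did not overlap, with a log2 fold change of -1.52 (SE 0.39, adjusted p = 0.0245), and its call was lost when HG_2, HG_4 or MG_1 was left out and on FPKM values.

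Of 13 tested core proteins outside the chosen symbols, HSPG2 and AGRN fell and 11 were not called. Both are heparan sulfate cores of basement membranes. HSPG2, perlecan, measured 654, 604, 593, 553 and 598 CPM in MG_1 to MG_5 and 408, 391, 370.5, 349 and 378 CPM in HG_1 to HG_5. The highest HG library, HG_1, was far below the lowest control library, MG_4, with a log2 fold change of -0.66 (SE 0.055, adjusted p = 6.97e-05). Agrin, AGRN, measured 497, 501, 478, 453 and 478 CPM in MG_1 to MG_5 and 387, 375, 372, 354 and 355 CPM in HG_1 to HG_5. Its groups were separated as well, with a log2 fold change of -0.38 (SE 0.043, adjusted p = 0.000265). CD44, the main receptor of hyaluronan, rose with a log2 fold change of 0.26 (adjusted p = 0.00314) and was the only called gene among the 5 tested that bind hyaluronan.

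**Figure D5:**
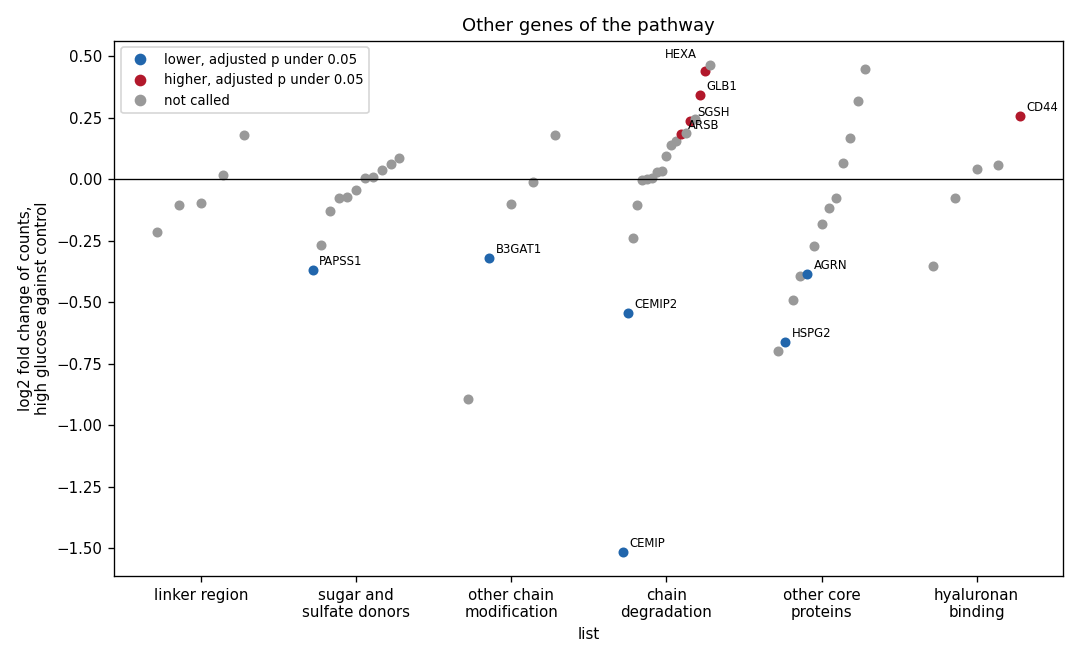
Log2 fold change of counts (y axis, HG against MG) of the 58 tested genes in 6 lists of the pathway (x axis), 1 point per gene and in order of value within a list. Named points passed an adjusted p under 0.05, in blue the 6 that fell and in red the 5 that rose, 4 of them among the genes of chain degradation.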

How the data were processed

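RNA of 10 ARPE-19 libraries (5 MG, 5 HG) had been sequenced from total RNA with the VAHTS Universal V6 kit. The authors deposited whole-number read counts per gene without normalization, and FPKM values of the same libraries, which they scaled for the length of the transcript and the depth of the library. Per the submitters' processing notes, fastp 0.20.1, HISAT2 2.2.1 and GRCh38 were used. The counting program, annotation and strand setting are not given in the sources used here. Counts of 2 (2927 values) were more frequent than counts of 1 (1540), so counts may not be independent fragments, and intervals and limits cover counting error only. The titles of HG samples carry letters and the columns numbers, so HG columns were assigned to the group and not to a sample. Chi-square per gene was 13.8 to 78.5 over the 20 pairs of libraries within groups, so no 2 libraries were alike within sampling noise.

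Counts were analysed in R 4.3.3 with edgeR 4.0.16: filterByExpr, TMM, the quasi-likelihood test over 14936 rows and Benjamini-Hochberg adjustment over all of them. CPM are TMM-normalised. Levels between genes are compared by FPKM only. The ratio of count to FPKM varied over 1.5-fold between libraries in 5 tested members (CHST12, HAS3, CHST5, EXT2, EXTL1). Alternatives were DESeq2 1.42.0, other size factors and filters, limma 3.58.1 on log2(FPKM + 1) or log2(FPKM + 0.1), lowess removal of trends on GC content and length (span 0.3), and omission of libraries. Positions come from GENCODE release 29 and promoter windows from RefSeq. P-values measure the spread between these libraries, which may be technical.

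Members and lists were chosen with earlier results of these data known. Of the pathway genes listed, 1 is not reported here, and the counts of the lists leave it out. Values in every library are given for called members whose groups did not overlap and for the member of each role with the highest FPKM, other called members are given by fold change, and in each pathway list up to 4 called genes with the largest change are named. Members named beyond this, and SGSH, ARSB and PAPSS2, were chosen after their values were seen.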

Additional observations from a re-analysis of the deposited data

Results flagged for a closer look

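In groups of 5 libraries, a library was singled out where its gap to the nearest other library exceeded 71% of the range of the group, the 95% limit of Dixon's test. Of 98 groups (49 tested members in MG and in HG) 9 were singled out, where chance alone gives about 4.9, and 7 of the 9 were in MG_2 or HG_1, the libraries with a GC trend. GPC1 measured 367 CPM in MG_2, beside 309 to 321 in the other control libraries, and 308 CPM in HG_1, beside 227 to 247 in the other HG libraries. CHPF measured 321 CPM in MG_2, beside 263 to 279. HS2ST1 had 52.9 CPM in MG_2, beside 62.3 to 65.7, and CSGALNACT2 had 18.6 CPM there, beside 26.0 to 27.0. CHST12 reached 23.5 CPM in HG_1, beside 18.7 to 19.97, and CHST14 reached 24.1 CPM there, beside 20.1 to 21.0. The other 2 were GPC2 in MG_5 with 3.71 CPM, beside 3.30 to 3.39, and EXT2 in MG_1 with 199 CPM, beside 182 to 187. Without MG_2 and HG_1, CHST12 and CHST14 were called as lower. What set these libraries apart was not tested.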

How the results depend on the processing

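The number of members called was 19, between 14 and 21 under the 11 alternative settings and between 12 (without MG replicate 1) and 18 with 1 library left out, and 2 once a fold change above 1.5 was required. Of all rows 2303 were called, 4035 without MG_2 and HG_1, 3908 after removal of GC and length trends, 551 with the fold limit, and between 1648 and 2993 with 1 library left out. Of the pathway genes 11 were called, 19 after that removal, and between 7 (without MG replicate 1) and 13 with 1 library left out. Over 35 named genes and their alternatives, 614 of 733 values kept direction and side of the threshold, 102 lost and 4 gained a call, and 13 changed sign. None of the sign changes was in a called gene. With 1 library left out HAS3 lay between -0.40 and 0.058 (without HG_3) and XYLT2 between -0.088 and 0.0036 (without MG_2), and XYLT2 was 0.033 after removal of GC and length trends. HS3ST3A1 was 0.0015 with library size alone, 0.013 and 0.014 on log2(FPKM + 1) and log2(FPKM + 0.1), 0.0041 without MG_2 and HG_1, 0.025 after removal of the trends, and between -0.047 and 0.018 with 1 library left out. The cause was not tested. No call was lost with 1 library left out for CHST2, NDST1, SDC2, SDC4, GPC1, GPC4, GPC6, EXT1, EXTL3, SULF2, CHPF2 and CHSY1. Of the members, EXTL3, CHST11 and GLCE lost theirs in all 3 fits of FPKM values and CHSY1 and SDC3 in the 2 without a minimum level (adjusted p up to 0.12). No paired analysis was possible because the titles of HG samples carry letters and share no replicate number with the control samples, and nothing ties the numbers of the columns to a pairing. Members under about 1 CPM, such as HAS1, CHST7 and EXTL1, have a large counting error.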
